A study of Pan troglodytes and Macaca mulatta with 12 samples.

Results

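Long exons, defined as exons of at least 1500 bases in genes with at least 3 exons, numbered 2837 of the 119202 exons read in lymphoblastoid cell lines of chimpanzee and rhesus macaque. They were chosen by length and exon number alone, from the coordinates in the exon names, and they lay in 2661 of 16903 genes. A further 888 exons of that length, in genes with only 1 or 2 exons, did not meet the rule. Although long exons were 2.38% of exons, they held 15.0% of all counts.

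RNA was sequenced from lymphoblastoid lines (immortalised B lymphocytes, which grow on in culture) of 6 chimpanzees (3 females, 3 males) and 6 rhesus macaques (2 females, 4 males), untreated and with 1 library per individual. Total RNA was extracted with a Qiagen RNeasy kit, and cDNA was end-repaired, joined to Illumina adapters, selected by size on a gel, amplified by PCR and read on a Genome Analyzer II. No step marks the strand of origin. Human lines named in the study's design were not analysed here. The files do not pair gene identifiers with names, so markers of B cells and of other blood cells could not be read, and exons are given by chromosome, start and end as in the files. Their genome build was not given in the sources used here.

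A typical vertebrate gene has many short exons that carry the coding sequence and a last exon that is much longer, because it holds most of the 3′ untranslated region. That region ends where the transcript is cleaved and a poly(A) tail is added, and it carries sites for microRNAs and for proteins that set how stable, how well translated and where in the cell an mRNA is. Many genes have more than 1 cleavage site (alternative polyadenylation), which makes the last exon longer or shorter or moves the end to another exon. A long exon inside a gene can be a large coding exon, or the end of a shorter transcript.

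Library totals ran from 1434241 to 4751954 counts. The share of an exon is its count divided by the summed count of its gene in the same library, in percent, so the level of the gene cancels out. In a bulk sample, fewer cells of a type and less RNA per cell cannot be told apart. Spread between lines of a species includes differences of culture and library preparation, and p-values measure differences against that spread.

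Most long exons stood at the edge of their gene. Of the 2837, 1198 (42.2%) were the exon with the lowest coordinate among those read in the gene, 1236 (43.6%) the exon with the highest, and 403 (14.2%) were internal. Thus 85.8% stood at an end, against 10.9% of the 26591 shorter exons of the same genes. Exon numbers ascend with the coordinate in every gene and the strand is not recorded, so the end of transcription cannot be told from the start. The median length was 2322 bases, against 137 bases over all exons, and 357 long exons had 4000 bases or more. A single long exon was the rule: 2501 genes had 1 and 160 had more.

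Shares were described where the gene had at least 20 counts in every library, which left 1593 long exons of 1492 genes, 1350 at an end and 243 internal. The median long exon held 53.5% of its gene's counts in chimpanzee and 57.1% in rhesus macaque. It made up a median of 60.5% of the summed length of the gene's exons, so the share was near the exon's part of the length. Long exons at an end had medians of 56.6% in chimpanzee and 60.8% in rhesus macaque, while internal ones had medians of 40.5% and 34.3%. Per base, end long exons were read less densely than the rest of their gene, with median ratios of 0.838 in chimpanzee and 0.959 in rhesus macaque. For internal long exons the order of the species was the opposite, at 1.05 and 0.861.

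Between the species the shares kept nearly the same order, with a Spearman correlation of 0.933 over the 1593 exons, which share libraries and exon lengths. The SD between lines of a species had a median of 5.76 percentage points in chimpanzee and 5.24 in rhesus macaque. The difference in mean share (chimpanzee minus rhesus macaque) had a median of -2.02 points, and 80% of exons lay between -11.6 and 9.08 points. The middle of the distribution lay near 0 because differences went both ways, with quartiles of -7.32 and 3.02 points. The direction went with the place in the gene. At an end, 891 of 1350 (66%) had the higher mean share in rhesus macaque, with a median difference of -2.84 points. Inside the gene, 155 of 243 (63.8%) had the higher mean share in chimpanzee, with a median difference of 1.64 points.

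**Figure D1:**
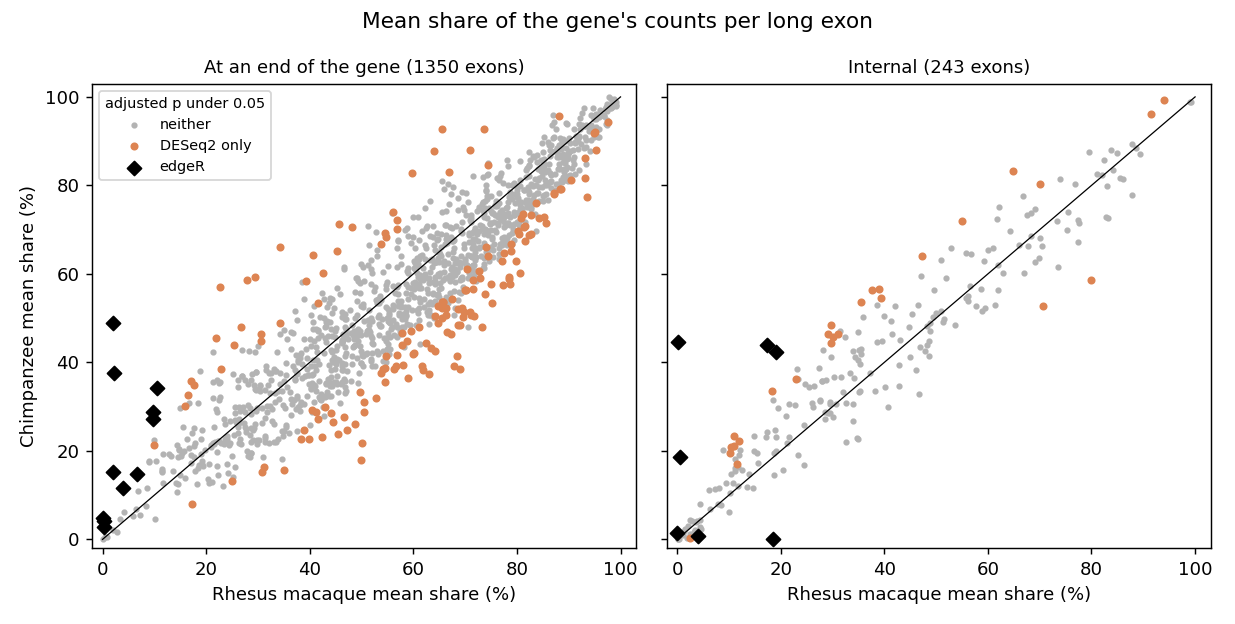
Mean share of each long exon in its gene, for rhesus macaque (x axis, %) against chimpanzee (y axis, %), 1 point per exon, with 1350 end exons on the left, 243 internal exons on the right and colour for the test that called the exon. Most points lie near the diagonal, with more end exons below it (891) than above, and more internal exons above it (155) than below.

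The same tilt was found in exons shorter than 1500 bases, so it was not particular to long ones. Of 9272 shorter end exons, 41.2% had the higher share in chimpanzee, against 64.9% of 53127 shorter internal exons. Since the shares of a gene sum to 100%, a lower share at the end goes with a higher one inside. Each length class of long exons had this split. At an end the median difference was -3.06 points for 754 exons of 1500 to 2499 bases, -2.95 for 407 of 2500 to 3999 and -2.04 for 189 of 4000 or more. Inside the gene it was 1.83, 0.782 and 5.52 points, the last over 24 exons.

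Pooled over all their genes, long exons held 53.0% to 61.8% of the counts in the chimpanzee libraries (mean 57.2% ± 3.61, SD, n = 6) and 57.6% to 62.4% in the rhesus libraries (60.0% ± 1.88, n = 6). The groups overlapped, and the difference of -2.83 points was smaller than the chimpanzee SD. Chimpanzee replicates 1 (61.8%) and 6 (60.9%) lay within the rhesus range, and replicates 2 (53.9%), 3 (56.1%), 4 (57.4%) and 5 (53.0%) lay below it. End long exons held 56.2% ± 4.35 in chimpanzee and 60.5% ± 2.36 in rhesus macaque, with overlap. Internal long exons held 40.1% to 43.9% in chimpanzee (42.2% ± 1.61) and 36.5% to 40.8% in rhesus macaque (38.9% ± 1.64). Here 4 chimpanzee libraries lay above every rhesus library, and replicates 1 and 6 (40.1% and 40.4%) lay within the rhesus range.

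**Figure D2:**
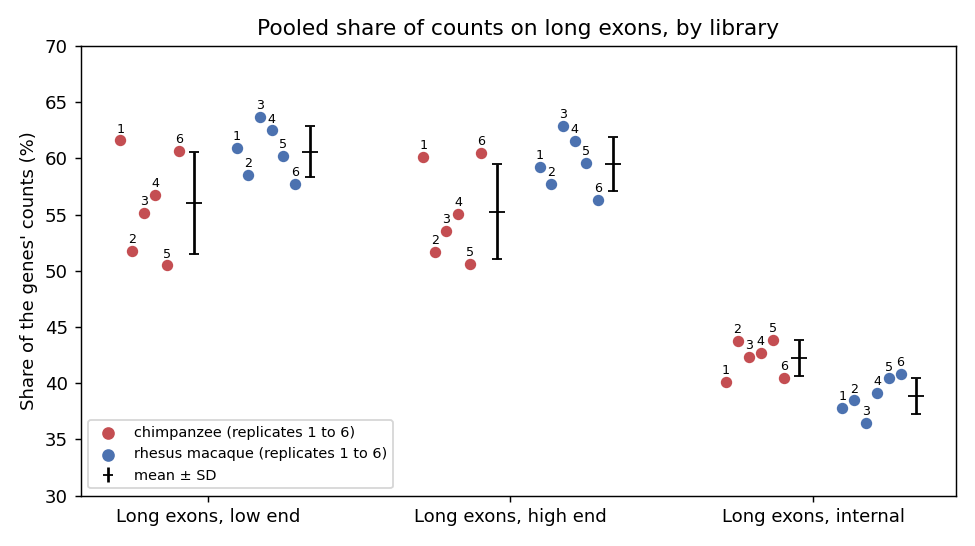
Share of the genes' counts that fell on long exons (y axis, %, not starting at 0), 1 numbered point per library with bars for the mean and SD of 6 libraries, for low-end, high-end and internal long exons in each species. At the low end chimpanzee libraries spread from 50.5% to 61.6% and rhesus libraries from 57.7% to 63.7%, and the internal exons show the opposite order of means (42.2% and 38.9%).

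The spread within chimpanzee was shared by many genes. Of the 1350 end long exons, 561 had their highest chimpanzee share in replicate 1 and 512 in replicate 6, and 466 had their lowest in replicate 5 and 370 in replicate 2. Replicate 1 was also the library with the most counts on long exons, at 20.3% of all its counts, against 13.96% to 16.2% in the other chimpanzee libraries and 12.9% to 15.1% in rhesus macaque. It was the smallest library, with 1434241 counts. The part of library size and of library preparation in these shares was not tested.

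The density of counts along the gene was described by library, with no test. Counts and exon lengths were each summed over the genes before division, so genes with more counts weigh more. In 754 genes with 1 long end exon and at least 8 exons, the density of counts per kilobase, scaled to 1e+06 counts in the library, was 31.8 ± 5.46 on the long exon in chimpanzee and 27.9 ± 2.13 in rhesus macaque. It was 54.7 ± 4.98 and 46.4 ± 2.67 on the nearest exon and 53.2 ± 2.37 and 47.6 ± 3.04 on the next. Relative to the long exon these densities were alike, at 1.77 ± 0.421 and 1.67 ± 0.0952 for the nearest and 1.71 ± 0.314 and 1.71 ± 0.109 for the next. Farther on, the density fell with distance faster in rhesus macaque than in chimpanzee: 6 exons away it was 47.8 ± 5.08 in chimpanzee (38.6 to 52.7) and 33.4 ± 4.85 in rhesus macaque (26.6 to 40.3), with overlap, or 1.54 ± 0.312 and 1.20 ± 0.135 relative to the long exon. On the exon at the opposite end it was 25.8 ± 2.70 in chimpanzee and 24.8 ± 3.24 in rhesus macaque. Relative to the long exon the order of means was reversed there, at 0.837 ± 0.194 in chimpanzee and 0.893 ± 0.138 in rhesus macaque, with overlap. The other exons, split into those farther from and those nearer to the long exon, had a far-to-near density ratio of 0.6999 to 0.791 in chimpanzee (0.749 ± 0.0372, n = 6) and 0.601 to 0.723 in rhesus macaque (0.639 ± 0.0453, n = 6). Rhesus replicate 6 (0.723) was the rhesus library that reached into the chimpanzee range. The exons on the way were short, with medians of 123 to 129 bases, and how reads across exon junctions were counted was not given in the sources used here. RNA integrity was not given, and its part in this gradient was not tested.

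**Figure D3:**
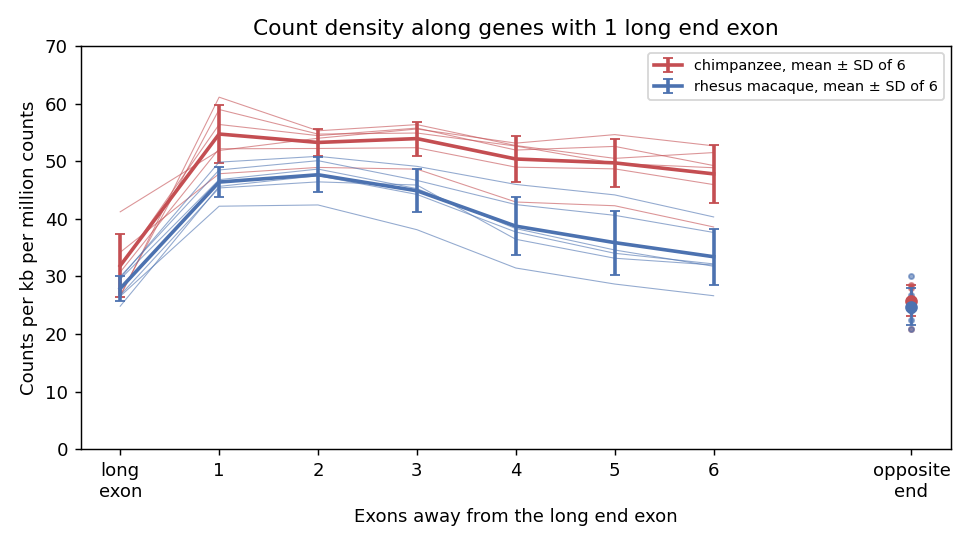
Count density (y axis, counts per kilobase scaled to a common library total) on the long end exon, on the 6 exons next to it and on the exon at the opposite end (x axis), pooled over 754 genes, as the mean of 6 libraries per species with SD bars, and thin lines or small points for single libraries. The curves are close on the long exon (31.8 and 27.9) and at the opposite end, and farthest apart 6 exons away (47.8 in chimpanzee and 33.4 in rhesus macaque).

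For 131 of the 1593 long exons (8.22%), all 6 shares of one species lay above all 6 of the other, 55 (3.45%) higher in chimpanzee and 76 (4.77%) in rhesus macaque. Over the 62399 shorter exons of genes with at least 3 exons the percentage was 4.04, with 2.55 higher and 1.49 lower in chimpanzee. Long exons hold more counts than short ones, and in the upper bands of exon counts the percentages were close. With 1000 to 2999 counts, 6.97% of long and 8.57% of shorter exons did not overlap, and with 3000 counts or more 11.2% and 11.6%. With 300 to 999 counts the values were 6.45% and 5.76%, and with 100 to 299 counts 11.4% (5 of 44 long exons) and 3.97%. Place mattered for direction here too: 73 of the 108 end exons without overlap were higher in rhesus macaque, and 20 of the 23 internal ones were higher in chimpanzee. This direction was not particular to long exons. Of 9272 shorter end exons, 391 (4.22%) were higher in rhesus macaque without overlap and 189 (2.04%) in chimpanzee. Of 53127 shorter internal ones, 540 (1.02%) and 1404 (2.64%) were. Long end exons stood at 5.41% and 2.59%, and long internal ones at 1.23% and 8.23%.

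How many long exons were called for usage depended on the test. The edgeR exon usage test, with Benjamini-Hochberg adjustment over all exons, called 19 of 2418 tested long exons (0.786%), 16 with higher and 3 with lower usage in chimpanzee. Over all 87939 tested exons 0.852% were called, 0.537% higher and 0.315% lower, so the count was near the background. This test compares an exon with its whole gene, the exon included, so an exon that is most of its gene can barely differ from it. Of 1405 tested long exons with at least 50% of their gene's counts, edgeR called 1. A DESeq2 fit of each exon against the rest of its gene called 233 (9.64%), 87 higher and 146 lower in chimpanzee, against 3.85% of all exons (1.99% and 1.86%). Among exons with at least 20 gene counts in every library, its percentages were close in the upper count bands. With 1000 to 2999 counts DESeq2 called 11.2% of long and 12.2% of shorter exons, and with 3000 or more 19.2% and 18.8%. With 300 to 999 counts the values were 7.98% and 6.37%, and with 100 to 299 counts 11.4% (5 of 44) and 3.1%. With limma voom the calls numbered 182 (7.53%), 79 higher and 103 lower, against 2.35% (0.938% and 1.41%). All but 1 of the 19 edgeR calls were shared with DESeq2, and 119 exons were called by both DESeq2 and voom. Of 2057 tested end long exons, DESeq2 called 58 (2.82%) higher and 138 (6.71%) lower in chimpanzee. Of 361 internal ones it called 29 (8.03%) higher and 8 (2.22%) lower. DESeq2 calls of shorter exons are not given by place here, so this split cannot be read as particular to long exons. The exact permutation test of mean shares, adjusted in the same way, called 0 of 1588 (0% of all 62451 exons), with a smallest adjusted p of 0.0501, while 601 (37.8%) had an unadjusted p under 0.05, against 26.2% of all exons. With 6 against 6 its p cannot fall under 0.00216, and all exons at that value share the adjusted p of 0.0501. The test could thus call all of these or none, and its 0 calls do not show that usage was alike. Neither voom calls nor permutation p-values were split by exon counts.

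The exons described first passed the edgeR test with no overlap of shares and at least 20 gene counts in every library. The 10 with the widest difference towards chimpanzee and the only 1 towards rhesus macaque were taken. Without overlap the exact permutation p (two-sided, 6 against 6) can only be 0.00216, the smallest possible. It was therefore fixed by the choice and is no further evidence. Of the 10, 7 stood at an end and 3 were internal. The aligner and the rules that matched exons between species were not given in the sources used here. For exons near 0 in 1 species, low usage therefore cannot be told apart from reads that could not be placed on the exon in that species. The limits given below for a count of 0 cover counting error only.

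**Figure D4:**
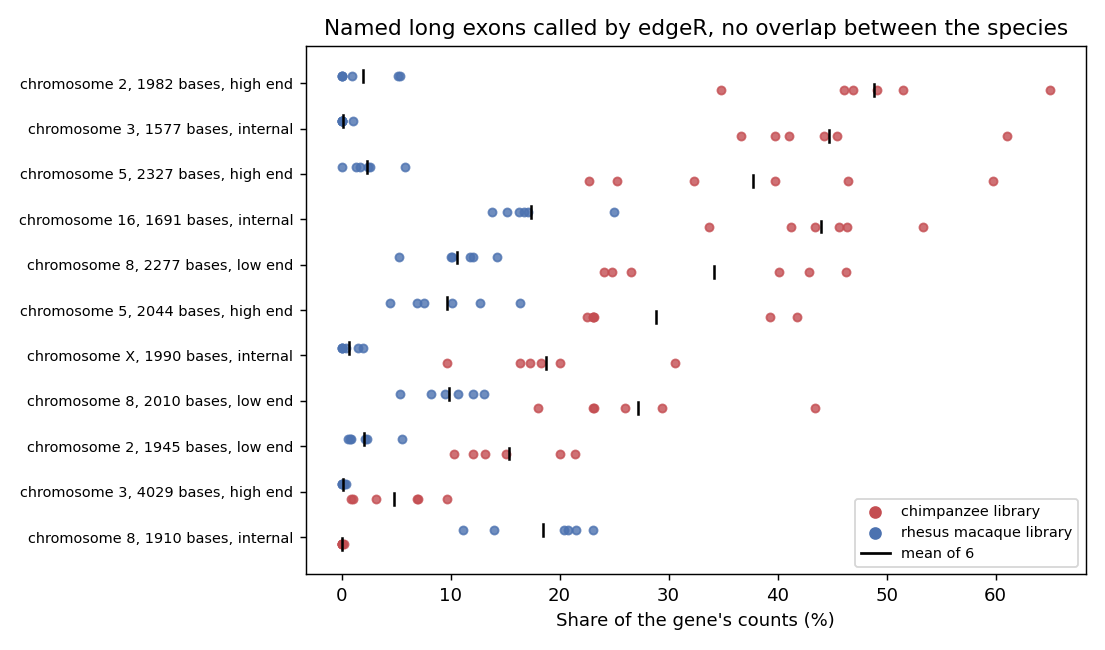
Share of the gene's counts (x axis, %) in each of 12 libraries for the 10 long exons with the widest difference towards chimpanzee and the 1 towards rhesus macaque among edgeR calls without overlap, 1 row per exon labelled with chromosome, length and place, and a black tick for the mean of 6 libraries. In 10 rows all 6 chimpanzee points lie to the right of the rhesus points, and in the last row the order is reversed.

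The widest difference was at the high end of a gene (ENSG00000127838), on chromosome 2 from 218917775 to 218919756 (1982 bases). In chimpanzee its share had a lowest value of 34.8%, a median of 48.0% and a highest of 65.0%. In rhesus macaque these values were 0%, 0.467% and 5.39%, from 19 of 849 counts of the gene. About as many chimpanzee reads of this gene were counted on that exon as on all others together, and hardly any rhesus reads were. The difference in mean share was 47.0 points (edgeR, Benjamini-Hochberg adjusted p = 3.2e-13). In the 3 rhesus libraries at 0, a count of 0 allowed a share of up to 1.58% to 3.70%. The gene's level was higher in chimpanzee with the exon counted (log2 fold change 0.72 ± 0.22, SE, edgeR adjusted p = 0.016), and with the long exon taken out the log2 fold change was -0.28 (adjusted p = 0.29).

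On chromosome 5, a high-end exon (138692933 to 138695259, 2327 bases) took 22.7% to 59.7% of its gene in the chimpanzee lines (median 36.0%) and 0% to 5.81% in the rhesus lines (median 2.05%). Chimpanzee libraries held 1159 of its counts and rhesus libraries 15, out of 2693 and 769 for the gene, so gene and share both were higher in chimpanzee (edgeR adjusted p = 3.2e-07 for the exon and 0.00099 for the gene). Without the long exon the gene's log2 fold change went from 2.08 to 1.23, still past the threshold with an edgeR adjusted p of 0.0078.

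At the low end of its gene on chromosome 8, the exon from 91014740 to 91017016 (2277 bases) took up 24.1% to 46.2% in chimpanzee (median 33.3%) and 5.26% to 14.3% in rhesus macaque (median 11.0%). The species differed by 23.5 points (edgeR adjusted p = 0.0047). A high-end exon on chromosome 5 from 96134100 to 96136143 (2044 bases) held 22.6% to 41.8% in chimpanzee (median 23.1%) and 4.48% to 16.4% in rhesus macaque (median 8.81%), with an edgeR adjusted p of 0.0055. Its gene overlaps another gene in span, and the other gene also held a called long exon, from 96122270 to 96124688, with 30 of 1118 gene counts in chimpanzee and 2 of 1687 in rhesus macaque (edgeR adjusted p = 0.02, lost without any 1 of chimpanzee replicates 1 and 6 and rhesus replicates 2, 4 and 6, with adjusted p up to 0.145). Without strand, reads from overlapping genes cannot be told apart.

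The remaining end exons had lower chimpanzee counts than those above. The exon on chromosome 8 from 87553694 to 87555703 (2010 bases) held a median of 24.6% in chimpanzee (18.0% to 43.4%) and 10.1% in rhesus macaque (5.38% to 13.1%). This call was near the threshold: its edgeR adjusted p was 0.036, and it was lost on leaving out any 1 of 9 libraries (chimpanzee replicates 1, 3, 4 and 6 and rhesus replicates 1 to 5), with adjusted p up to 0.142. A chromosome 2 exon at 230740253 to 230742197 (1945 bases) took 10.3% to 21.4% in chimpanzee and 0.602% to 5.53% in rhesus libraries, with 324 and 54 counts (edgeR adjusted p = 7.4e-09). On chromosome 3, the 4029 bases from 48671324 to 48675352 drew 0.877% to 9.68% in chimpanzee and 0% to 0.368% in rhesus libraries, from 27 and 3 counts (edgeR adjusted p = 0.00064). Although those counts are few, the rhesus libraries had more counts of the gene (1999 against 857), and in the 3 at 0 the limit was 0.735% to 1.38%.

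Among internal exons, the one at 44374713 to 44376289 of chromosome 3 (1577 bases, gene ENSG00000179152) held 36.7% to 61.0% in chimpanzee with a median of 42.7%. In rhesus macaque 5 libraries were at 0 and the sixth at 1.08%, from 1 of 409 counts of the gene over the species. A count of 0 allowed up to 3.30% to 5.88% in those libraries, far under the lowest chimpanzee share. The edgeR adjusted p was 1.7e-15. The level of the gene was alike, at 395 and 409 counts, with a log2 fold change of -0.04 ± 0.30 (SE, edgeR adjusted p = 0.93).

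On chromosome 16, the internal exon from 47152166 to 47153856 (1691 bases) held 33.7% to 53.3% in chimpanzee (median 44.5%) and 13.8% to 25% in rhesus macaque (median 16.5%). With 1183 and 531 counts it was well covered in both species (difference 26.6 points, edgeR adjusted p = 0.022). The call was lost without chimpanzee replicate 3 or any 1 of rhesus replicates 1 to 4, where the edgeR adjusted p ran from 0.0518 to 0.0771, while DESeq2 gave an adjusted p of 5.7e-10 with all libraries. On chromosome X, the internal exon from 47802547 to 47804536 (1990 bases) held 9.68% to 30.6% in chimpanzee (median 17.8%) and 0% to 1.96% in rhesus macaque (median 0.214%), with 93 and 5 counts (edgeR adjusted p = 7.1e-07).

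Only 1 exon met the same rule towards rhesus macaque. It was internal (chromosome 8, 25324627 to 25326536, 1910 bases, gene ENSG00000147459) and held 11.1% to 23.1% in rhesus macaque with a median of 20.6%. In chimpanzee it had 1 of 2311 gene counts, and in the 5 libraries at 0 the limit was 0.452% to 1.29%. The edgeR adjusted p was 1.7e-26, while the gene's level had a log2 fold change of -0.26 ± 0.19 (SE, adjusted p = 0.26). The other 2 edgeR calls towards rhesus macaque did not meet the rule. An internal exon of chromosome 13 starting at 110742466 (3078 bases) had 0.243% to 1.32% in chimpanzee and 1.24% to 6.76% in rhesus macaque, an overlap (edgeR adjusted p = 5.7e-05). A low-end exon of chromosome 18 starting at 72819771 (1645 bases) took 10% to 50% in chimpanzee lines and 64.4% to 93.3% in rhesus macaque (edgeR adjusted p = 0.011), but its gene had as few as 2 counts in a library, and the call was lost without chimpanzee replicate 2 (adjusted p = 0.0662).

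The other 5 edgeR calls were towards chimpanzee, and 1 of them, an internal exon of chromosome 3 with overlapping shares, is given below with the other long exon of its gene. The low-end exon of chromosome X starting at 135123047 (1792 bases) had 3.05% to 4.90% in chimpanzee and 0% to 0.752% in rhesus macaque, without overlap (edgeR adjusted p = 0.00036). A low-end exon of chromosome 3 starting at 52230138 (3231 bases) had 11.5% ± 5.99 and 3.88% ± 2.47 (edgeR adjusted p = 0.0017, or 0.0843 without chimpanzee replicate 6). A high-end exon of chromosome 14 starting at 72656174 (1567 bases) had 14.8% ± 6.73 and 6.56% ± 4.32. Its edgeR adjusted p was 0.033 and its DESeq2 adjusted p 0.066, and the edgeR call was lost without any 1 of chimpanzee replicates 1, 3, 4 and 6 and rhesus replicates 1 to 4 (highest adjusted p 0.316). An internal exon of chromosome 6 starting at 152796357 (2573 bases) was called on 9 and 1 counts, and the call was lost without rhesus replicate 4 or 5. Leaving out a library that held any of those counts put the exon under the minimum of 10 counts, so only 6 of the 12 such fits tested it, and 4 kept the call.

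Genes with more than 1 long exon showed how shares of the same gene differed together. There were 95 such genes among those described, and 70 of them held both an internal and an end long exon. In 15 of the 95, 1 long exon was more than 10 points higher in chimpanzee and another more than 10 points lower. In 11 of the 15 the internal long exon was the higher and the end one the lower in chimpanzee, in 0 the converse, and in the other 4 both were of the same kind. Shares within a gene are tied, since a rise of one lowers the rest.

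In the chromosome 3 gene, the internal exon from 44374713 was 44.5 points higher in chimpanzee, while the high-end exon from 44423938 to 44425941 took 17.9% ± 5.19 in chimpanzee and 49.9% ± 10.04 in rhesus macaque. For the gene on chromosome 16, the internal exon was 26.6 points higher and the low-end exon of 4534 bases from 47130140 26.9 points lower in chimpanzee, at 41.5% ± 6.19 against 68.4% ± 4.57. Both end exons missed the edgeR threshold (adjusted p = 0.062 and 0.44) and passed DESeq2 (adjusted p = 2.4e-05 and 1.7e-08). Another chromosome 3 gene had its internal exon from 36871668 (2877 bases) at 42.3% ± 7.94 in chimpanzee and 19.1% ± 10.4 in rhesus macaque, and its low-end exon from 36843315 at 38.5% ± 9.23 and 69.1% ± 11.5. The edgeR adjusted p of that internal exon was 0.023, and its call was lost without any 1 of chimpanzee replicates 3 and 4 and rhesus replicates 1 to 4 (highest adjusted p 0.216).

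End exons that missed the edgeR threshold were left to DESeq2 and the comparison of shares. The following were picked after their values were seen, from the widest differences without overlap, and are a description. Higher in chimpanzee, a low-end exon of chromosome 3 starting at 151742471 (2505 bases) held 43.1% to 84.2% (median 52.9%) against 13.3% to 34.5% (median 19.8%). A high-end exon of chromosome 9 starting at 107437153 (6068 bases) had 90.9% to 95.5% in chimpanzee against 52.8% to 75.5%, and a chromosome 12 exon starting at 4279287 (5491 bases) had 77.5% to 89.95% against 49.8% to 71.1%. The last, picked for its depth, had 18527 chimpanzee and 22440 rhesus counts. Exons without overlap and with wider differences than it, not given by share here, started at 138986525 on chromosome 5 (30.7 points), 36073331 and 4708670 on chromosome 20 (29.95 and 23.7 points), 23843984 on chromosome 14 (25.6 points) and 15449717 on chromosome 9 (23.6 points).

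Higher in rhesus macaque, a low-end exon of chromosome 7 starting at 38730068 (2384 bases) held 38.9% to 60.0% (median 51.4%) against 16.4% to 30.3% in chimpanzee (median 21.5%). A high-end exon of chromosome 1 starting at 110003145 (2743 bases) had 65.4% to 83.3% against 42.3% to 52.8%. A high-end exon of chromosome 16 starting at 55737498 (1880 bases) was as wide, at 67.8% ± 8.06 against 39.2% ± 12.5, in a gene with as few as 20 counts in a library. Of these 6 and the 5 listed by start alone, none passed edgeR (adjusted p from 0.065 to 0.85), and all passed DESeq2 (adjusted p from 2.7e-09 to 0.012). Since they were picked for wide differences in the same libraries, passing DESeq2 is no separate evidence.

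Of the 3 long exons with most counts, 0 passed edgeR or DESeq2. A low-end exon of chromosome 17 (35963550 to 35965596, 2047 bases) took 96.8% to 98.5% of its gene in chimpanzee and 96.6% to 98.7% in rhesus macaque, from 32153 and 88449 counts. An internal exon of chromosome 16 (2751563 to 2756603, 5041 bases) had 77.6% ± 4.21 and 66.9% ± 8.67, a difference of 10.8 points with overlap (edgeR adjusted p = 0.97, DESeq2 0.086). A low-end exon of chromosome 8 (134118155 to 134120164, 2010 bases) had a median of 76.3% in chimpanzee and 80.02% in rhesus libraries. Its gene had 1 count in chimpanzee replicate 5, which left that library's share at 0%.

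The 3 longest exons among the 1593 described were not called. The 12954-base exon on chromosome 22 from 39048804 to 39061757 held 67.7% ± 7.62 of its gene in chimpanzee and 57.1% ± 4.92 in rhesus macaque. The 11813-base exon on chromosome 2 from 206566690 held 81.9% ± 6.47 and 73.5% ± 8.09, and the 9059-base exon on chromosome 2 from 112805053 held 43.0% ± 7.82 and 39.4% ± 9.54. Each overlapped between the species and missed both tests (adjusted p from 0.93 to 0.97 with edgeR and from 0.15 to 0.81 with DESeq2). At the length limit, a 1500-base exon of chromosome 2 starting at 60531806 had mean shares of 10.9% and 17.4%, and 1 on chromosome 1 from 41258485 had 9 and 28 counts in all. The gene of the first had as few as 1 count in a library and that of the second as few as 0. Neither met the minimum of 20 gene counts in every library. Just outside the length limit, a 1499-base exon of chromosome 16 starting at 30642406 had 31.8% and 37.7%, and 1 on chromosome 1 from 111784036 held 60.3% and 60.0%.

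Genes that hold a long exon were more often higher in chimpanzee in level. Of the 2661 genes 2049 passed the expression filter, and the edgeR quasi-likelihood test called 956 of them (46.7%, against 48.3% of all 9440 genes), 659 higher and 297 lower in chimpanzee. The higher calls were 32.2% of those tested against 24.7% over all genes, and the lower 14.5% against 23.6%. So the share of genes called was near the background while the direction was not: 68.9% of called genes with a long exon were higher in chimpanzee, against 48.1% of called genes with at least 3 exons and no long one.

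The tilt grew with the length of the gene's longest exon, and the rise began below the limit of 1500 bases. The percentage of called genes that were higher in chimpanzee was 46.8 where the longest exon had under 250 bases. At 250 to 499 bases it was 44.9, at 500 to 999 bases 47.4 and at 1000 to 1499 bases 56.4. It was 63.8 at 1500 to 2499 bases, 73.3 at 2500 to 3999 and 79.3 at 4000 or more, where the median log2 fold change of the 273 tested genes was 0.50. Without chimpanzee replicate 1, whose counts lay most on long exons, those last 3 values were 58.4, 69.6 and 73.6, and the overall value was 63.9 in place of 68.9. Leaving out each library in turn gave 63.9 to 70.3.

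**Figure D5:**
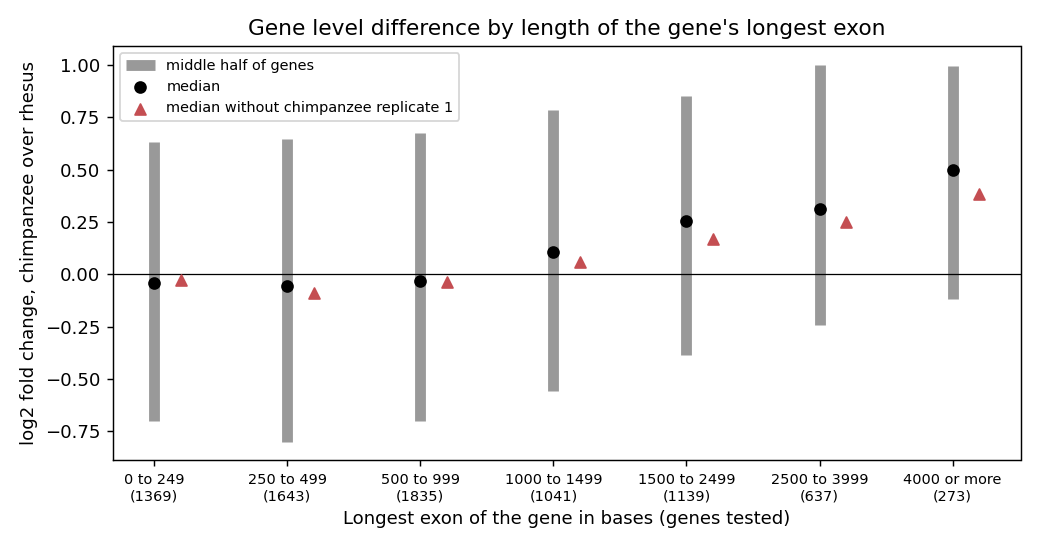
Median log2 fold change of gene level, chimpanzee over rhesus macaque (y axis), by length of the gene's longest exon in bases (x axis, genes tested in brackets), as points with bars for the interquartile range over genes, and as triangles without chimpanzee replicate 1. Medians stay near 0 below 1000 bases and reach 0.50 at 4000 bases or more, or 0.38 without that library.

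The tilt did not need the counts on the long exons. With every long exon taken out of its gene's sum, 779 of the 1729 genes still tested (45.1%, background 48.3%) were called by edgeR, 560 higher (32.4%, background 24.3%) and 219 lower (12.7%, background 24%), so that 71.9% of the calls were higher. Of the genes tested both ways, 653 were called in the same direction, 0 in opposite directions, 154 only with and 126 only without the long exons, and 320 fell under the filter. Chromosome 19 held 78 of the tested genes with a long exon, and 13 of its 40 called ones were higher in chimpanzee. Without it, an alternative chosen after seeing the data, 646 of 916 called genes with a long exon (70.5%) were higher in chimpanzee, against 50.8% of those with at least 3 exons and none. Base composition of the genes was not available here, and its part in this tilt was not tested.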

How the data were processed

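Each library has 1 deposited file, in which the authors give whole-number read counts for every exon with a read, and an exon missing from a file was taken as 0. Kit and sequencer are given per the labels' protocols. Not given in the sources used here are the aligner, counter and genome build, the rules that matched exons between species and the handling of junction reads. All 12 files name exons in 1 format, and they were joined over every exon name found in any of them. Of the long exons, 27 overlap an exon of another gene. Symbols were found for 0 of 16903 identifiers in the gene name table and for 0 in the RefSeq table, so marker lists, which need symbols, were not run and no sequence is printed.

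Species came from the labels. Library totals of 1434241 to 4751954 counts set the precision of a share. Intervals and limits for a count of 0 (3 counts) cover counting error only, since reads carry no molecular identifiers. Exon usage was tested in R 4.3.3 with edgeR 4.0.16 (TMM, quasi-likelihood fit with species as the only term, diffSpliceDGE) on all exons with at least 10 counts, and gene level with the edgeR quasi-likelihood test on summed exon counts after the default expression filter. Benjamini-Hochberg adjustment of p-values ran over the whole table, at a threshold of 0.05. Alternatives were DESeq2 1.42.0 (each exon against the rest of its gene, library as a term), voom with diffSplice in limma 3.58.1, exact permutation of shares, other filters, scalings, length limits, thinning, males only and each library left out. The scripts were tested on simulated data.

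Named exons are the 10 per species with the widest difference in mean share among edgeR calls without overlap and with at least 20 gene counts in every library, the 3 with most counts, the 3 longest, 3 internal ones by the first rule, and those next to the length limit. Members and lists were chosen with earlier results of these data known.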

Additional observations from a re-analysis of the deposited data

Results flagged for a closer look

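In 11 cases the share of a named or called long exon in 1 library stood apart from the other 5 of its species, with a gap to the nearest over 0.625 of the group's range (Dixon's 95% critical value for 6 samples). For values with a normal spread, chance flags about 1 in 20 groups. A group with 5 shares at 0 and 1 above 0 is always flagged, however small that share. The number of groups looked at is not given here, so the 11 are not set against that rate. Intervals are 95% Wilson intervals and cover counting error only. The internal exon on chromosome 3 from 44374713 had 61.0% in chimpanzee replicate 4 (interval 48.3% to 72.4%, 36 of 59 counts) and 1.08% in rhesus macaque replicate 6, from 1 count. The internal exon on chromosome 16 from 47152166 had 25% in rhesus macaque replicate 6 (22.1% to 28.1%), the rhesus library nearest to chimpanzee. A chromosome 2 exon starting at 230740253 had 5.53% in rhesus macaque replicate 5 (3.86% to 7.88%).

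A chromosome 8 exon starting at 25324627 had 0.270% in chimpanzee replicate 4, from 1 count, with the other chimpanzee libraries at 0. A chromosome 16 exon starting at 2751563, among the deepest, had 69.2% in chimpanzee replicate 6 (68.3% to 70.01%) and 49.6% in rhesus macaque replicate 3 (48.1% to 51.2%). The exon on chromosome 8 from 134118155 had 0% in chimpanzee replicate 5, where its gene had 1 count. The internal exon on chromosome 6 from 152796357 had 6.06% in chimpanzee replicate 1, from 2 of 33 counts, and 0.158% in rhesus macaque replicate 2, from 1 count. A chromosome 5 exon starting at 96122270 had 0.980% in rhesus macaque replicate 1, from 1 of 102 counts.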

How the results depend on the processing

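The 19 edgeR usage calls of long exons became 233 with DESeq2, 182 with limma voom, 0 with exact permutation (601 at an unadjusted p under 0.05) and 7 with males only, where 5 fewer libraries entered. The 0 of the permutation test was set by its smallest possible p, which gave an adjusted p of 0.0501. A limit of 1000 bases gave 32 and a limit of 2000 bases 10, since more or fewer exons are then counted. Leaving out each library gave 13 to 23, the lowest without rhesus replicate 2 or 4. Other filters, scalings, thinning and leaving out overlapping exons gave 14 to 20. Over the 19 called exons, 333 of 401 alternative fits kept the call, 68 lost it and 0 reversed it.

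The pooled difference in share ran from -3.76 to -1.99 points over libraries left out, and from -3.13 to -2.59 under other weightings and filters. Exons without overlap numbered 101 after thinning and 107 to 139 with other count minimums, against 131. Level calls ran from 859 to 1000 over libraries left out, and from 712 to 845 with long exons taken out. DESeq2 called 1014 genes, its size factors in edgeR gave 948, and no filter 1156. No paired analysis was possible because the labels give no replicate numbers that pair libraries across species. Where a gene has few counts, depth limits its shares: 1244 long exons had under 20 gene counts in some library and were not described.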
